A study of Mus musculus with 44 samples.

Results

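The genes described here are 39 genes of the motile cilium, the beating hair-like organelle of airway cells. They encode 3 heavy chains of the outer dynein arms (Dnah5, Dnah9, Dnah11), 7 proteins of the inner dynein arms (Dnah2, Dnah3, Dnah6, Dnah7a, Dnah10, Dnah12, Dnali1), 3 radial spoke proteins (Rsph1, Rsph4a, Rsph9) and 6 proteins of the central apparatus (Spag6l, Spag16, Spag17, Spef2, Hydin, Cfap54). A further 5 belong to the length ruler and the nexin-dynein regulatory complex (Ccdc39, Ccdc113, Ccdc153, Drc1, Drc7), 8 to the doublet microtubules and other parts of the axoneme (Cfap43, Cfap44, Cfap52, Cfap126, Tekt1, Tekt2, Tekt4, Tppp3) and 2 to the ciliary tip and membrane (Sntn, Tmem212). Zmynd10 acts in the preassembly of dynein arms, and 4 genes are regulators (Mcidas, Ccno, Rfx2, Rfx3). The genes are a list of names, drawn up with earlier results of these data known, and no measured value enters the rule. All 39 were present in both deposited tables, among 24150 genes in the subcutaneous table and 26940 in the intratracheal table.

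A motile cilium beats because dynein motors slide the doublet microtubules of its core, the axoneme, past each other, while radial spokes, the central apparatus and the nexin links set the waveform. In the lung these cilia stand on multiciliated cells of the conducting airways and carry mucus upward, and alveoli have none. Mcidas and Ccno act early in the making of such cells, in the step that multiplies centrioles, and RFX factors together with Foxj1 then switch on the axonemal genes.

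RNA was selected for polyA tails and sequenced from 44 pieces of lung tissue of C57BL6j mice, in 2 models built on LL/2-Luc2 cells, mouse Lewis lung carcinoma cells that carry a luciferase reporter. In the intratracheal model the cells were placed in the airways of mice with a mutant Timp2 gene (MT2) or of wild-type mice (WT). The lungs formed 6 groups of 5 libraries, which were MT2 and WT lungs with tumour cells and daily intraperitoneal recombinant human TIMP2 (rTIMP2, a metalloproteinase inhibitor, 200 µg per kg per day), MT2 and WT lungs with tumour cells and the vehicle HBSS, and tumour-free MT2 and WT lungs. In the subcutaneous model, WT mice carried the cells under the skin of the flank and the early metastatic lungs were taken after rTIMP2 begun on day 0 (n = 5), on day 7 (n = 4) or HBSS (n = 5). The sources used here do not give the age and sex of the mice, the nature of the Timp2 mutation, the place in the lung from which each piece was cut or the days between the cells and the harvest. The tumour-free mice also carry the cell line label, and the groups here follow the sample titles. Nothing states that each library is a separate mouse, so each p-value speaks of the spread between libraries. Each whole piece gave 1 library, so fewer ciliated cells and less ciliary RNA in each cell cannot be told apart.

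Values are normalized counts as the authors deposited them, called signal here, and those of a library summed to between 11800000 and 14600000 in the intratracheal table and between 16000000 and 17700000 in the subcutaneous one. Timp2 itself was at 5948 to 6237 in MT2 tumour-free lungs and at 10150 to 11490 in WT tumour-free lungs, without overlap. With tumour cells the ranges overlapped, at 5487 to 9597 in MT2 and 5809 to 10120 in WT lungs with rTIMP2 and 6512 to 11990 in MT2 and 5753 to 7781 in WT lungs with HBSS. The luciferase reporter had no signal in any of the 10 tumour-free lungs and was at 39.3 or more in all 10 HBSS tumour lungs. It was at 0 in replicates 2, 3 and 5 of the rTIMP2-treated WT lungs and at 0.983 in replicate 2 of the rTIMP2-treated MT2 lungs. Those 4 libraries also had Xist, which coats the inactive X chromosome, at no more than 119, against 4118 or more in the tumour-free lungs. Krt13, a keratin of squamous epithelium, was at 9776 or more in WT HBSS replicates 1 and 4, WT rTIMP2 replicates 2 and 3 and subcutaneous HBSS replicate 1, and was at 613 or less in every other library.

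Because long transcripts collect more reads, levels of different genes were compared only per kilobase of transcript. In MT2 and WT tumour-free lungs Tppp3, a tubulin-binding protein abundant in ciliated cells, had the highest level, at 4330 ± 443 and 4560 ± 164 per kb (SD, n = 5 each). Ccdc153 followed at 666 ± 68.6 per kb in MT2 and 815 ± 73.8 per kb in WT lungs, then Tmem212 (353 ± 53.8 and 420 ± 35.5 per kb in MT2 and WT lungs) and Rsph1 (330 ± 40.0 and 379 ± 39.7 per kb). The neighbours Tmem212 and Rsph1 lay within about 1 SD of each other, while Tppp3 stood far above the rest. At the low end were Dnah2, Dnah7a and Mcidas, with 10.5 ± 2.12, 5.15 ± 0.68 and 3.40 ± 2.15 per kb in MT2 tumour-free lungs and 11.2 ± 1.98, 5.52 ± 1.91 and 2.56 ± 1.47 per kb in WT ones. Dnah7a has near-identical copies (Dnah7b and Dnah7c) and Spag6l has a close relative, Spag6, so the division of reads among these copies is uncertain. In lungs of the subcutaneous HBSS group the same order held at its top for Tppp3 (5640 ± 379 per kb) and Ccdc153 (1240 ± 153 per kb), and at its foot for Mcidas (3.09 ± 1.42 per kb). The markers of multiciliated cells that are not among the 39 were present too, with Foxj1 at 1306 to 1538 in MT2 and 1246 to 1769 in WT tumour-free lungs.

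Many of the 39 genes share letters in their promoters. RFX factors bind the X-box, which was searched as GTNNCC, 1 to 3 bases and GGNNAC, a pattern that reads alike on both strands. RefSeq promoter sequences (build GRCm38.p6, 250 bases before to 50 after the start) were matched for 34 of the 39 genes. The pattern was found in 9 of the 34 (26.5%), against 4.0% of the 27025 genes with a promoter in the table. A stricter form, GTTNCC, 1 to 3 bases and GGNAAC, was found in none of the 34 and in 0.9% of all genes. The 6-letter site GTTGCC, searched on both strands, was found in 19 of the 34 (55.9%) and in 14.14% of all genes, and it can overlap the X-box pattern. GTAAACA, a core of forkhead factor sites such as those of Foxj1, was found in Sntn and Cfap43 (5.9%), against 4.05% of all genes. These are matches of letters, not tests of binding. Cfap126 had 3 promoters and Tekt1 had 2, and the window shown for each is measured from the start of 1 of them. That start lies inside the gene for both. Cfap126 begins at base 171113918 on the plus strand and Tekt1 at base 72362442 on the minus strand. The windows of the genes followed by sample below that held an X-box or GTTGCC before the start are shown 5′ to 3′ in the direction of transcription, with 20 bases on either side where these lie before the start and the matched letters in capitals (GGCAAC is GTTGCC on the other strand).
Cfap126, chr1:171122943-171122996, plus strand, X-box from 82 to 69 bases before the start: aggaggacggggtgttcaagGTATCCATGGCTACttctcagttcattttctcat
Drc1, chr5:30281362-30281392, plus strand, 11 to 6 bases before the start: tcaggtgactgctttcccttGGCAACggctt
Hydin, chr8:110266944-110266976, plus strand, 13 to 8 bases before the start: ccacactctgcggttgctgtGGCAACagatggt
Tekt1, chr11:72361883-72361937, minus strand, 2 sites from 35 to 10 bases before the start: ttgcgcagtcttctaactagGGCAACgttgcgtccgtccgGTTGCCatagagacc
Ccno, chr13:112987563-112987616, plus strand, X-box from 219 to 206 bases before the start: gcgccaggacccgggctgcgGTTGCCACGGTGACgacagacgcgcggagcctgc
Mcidas, chr13:112993653-112993698, plus strand, 195 to 190 bases before the start: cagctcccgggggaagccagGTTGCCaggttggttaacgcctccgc
Sntn, chr14:13670790-13670835, plus strand, 66 to 61 bases before the start: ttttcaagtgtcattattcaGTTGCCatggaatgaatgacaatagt
Rfx2, chr17:56831099-56831144, minus strand, 116 to 111 bases before the start: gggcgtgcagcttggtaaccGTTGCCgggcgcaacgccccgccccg
Ccno and Mcidas lie next to each other on chromosome 13, and both windows hold GTTGCC. Hydin and Drc1 carry the site close to the start, while Ccno carries it near the far end of the window.

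Lungs that carried tumour cells with HBSS were compared with tumour-free lungs of the same genotype. Nearly all of the 39 genes were far lower in the tumour lungs of both genotypes, from the dynein arms to the ciliary tip. In MT2 lungs 37 of 38 tested genes fell and none rose (adjusted p under 0.05), with a median log2 fold change of -4.01 over the 38. In WT lungs 37 of 38 fell and none rose, with a median of -3.29. Tumour lungs differed widely at large: 35.9% of all tested genes were lower and 31.5% higher in MT2 lungs, and 37.7% lower and 32.8% higher in WT lungs, while the median over all tested genes was -0.05 in MT2 and -0.07 in WT. Mcidas did not pass the minimum of 10 in 5 libraries and was not tested. In MT2 lungs 37 of the 39 genes had no overlap between the groups, and in WT lungs 35 of the 39, all with the tumour lungs below. The share of all genes without overlap is not given here, so these 2 counts have no background to be read against. With no filter Mcidas was tested as well, and it was called lower in MT2 but not in WT lungs. In every alternative setting and with any library left out, 35 to 37 genes were lower in WT and 36 to 38 in MT2 lungs, where Rfx3 was called higher in 4 MT2 settings and 1 WT setting.

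**Figure D1:**
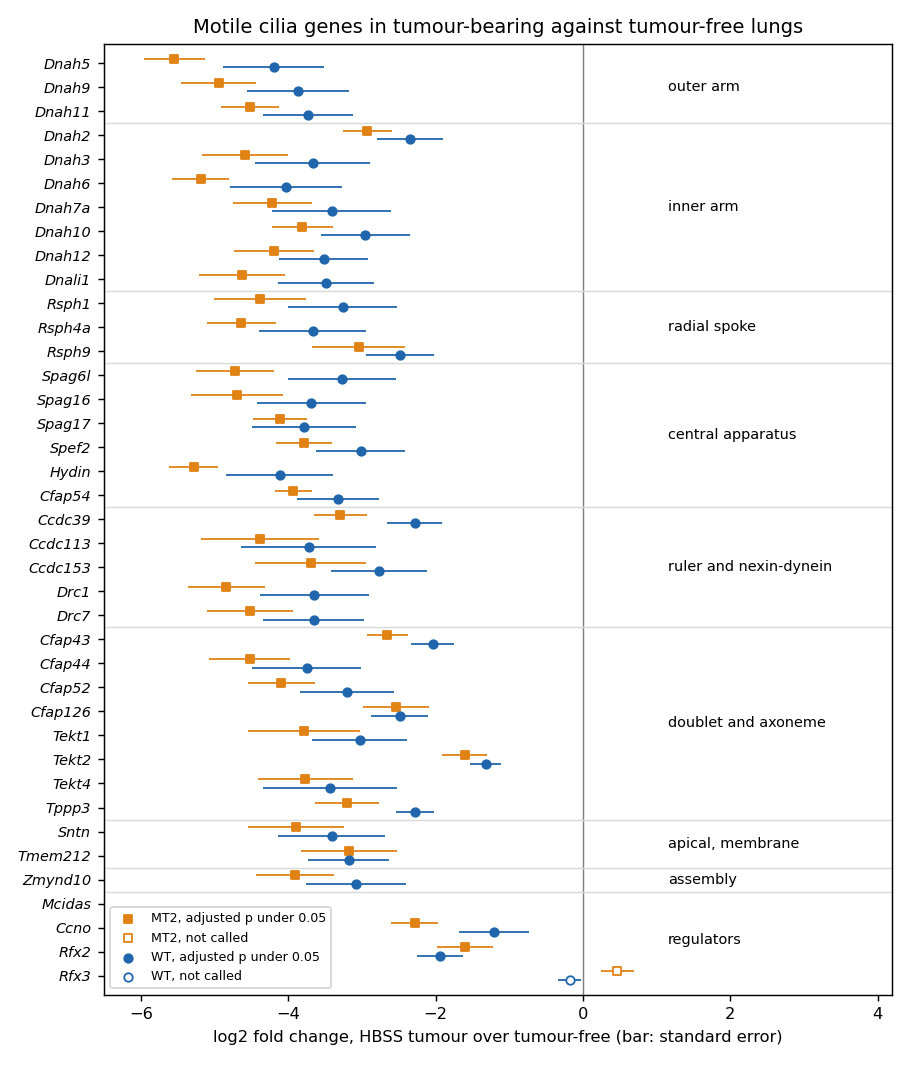
Log2 fold change of each of the 39 motile cilia genes in HBSS tumour lungs over tumour-free lungs, grouped by role, for MT2 (squares) and WT (circles), with standard errors as bars and filled symbols for adjusted p under 0.05. The structural genes lie between -1.32 and -5.54 in both genotypes, and Rfx3 stays next to 0. Mcidas was not tested and has no symbol.

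Among the outer arm motors, Dnah5, a heavy chain whose loss causes primary ciliary dyskinesia in humans, had the lowest log2 fold change of the 38 in both genotypes. In MT2 lungs Dnah5 was at 4.08, 9.68, 12.6, 33.3 and 16.7 in replicates 1 to 5 with HBSS tumour, against 666, 653, 662, 716 and 473 in tumour-free lungs. In WT lungs Dnah5 was at 233, 30.6, 19.4, 48.2 and 9.08 with HBSS tumour, against 596, 874, 954, 459 and 681 without tumour. The groups did not overlap in either genotype, although WT HBSS replicate 1 kept a level far above that of the other WT tumour lungs. The log2 fold change of Dnah5 was -5.54 (standard error 0.41, adjusted p = 8.4e-07) in MT2 lungs and -4.20 (standard error 0.68, adjusted p = 0.00028) in WT lungs. Dnah9, the outer arm heavy chain of the distal cilium, was at 2.04, 7.53, 9.66, 32.4 and 13.3 in MT2 lungs with HBSS tumour, against 365, 322, 386, 317 and 252 in MT2 tumour-free lungs. In the WT groups Dnah9 was at 156, 9.84, 21.8, 37.7 and 6.05 with HBSS tumour, against 362, 475, 455, 251 and 352 in tumour-free lungs. Every tumour lung was again below every tumour-free lung of its genotype. The log2 fold change of Dnah9 was -4.95 (standard error 0.50, adjusted p = 7.1e-06) in MT2 lungs and -3.87 (standard error 0.70, adjusted p = 0.00055) in WT lungs. The inner arm light chain gene Dnali1 was at 4.08, 7.53, 6.76, 37.1 and 48.4 in MT2 lungs with HBSS tumour, against 308, 346, 362, 409.5 and 363 in tumour-free ones. For WT, Dnali1 was at 186, 29.5, 13.3, 50.3 and 9.08 with HBSS tumour, against 319.7, 449.9, 451, 354 and 324 in tumour-free lungs. It fell in both genotypes without overlap, with log2 fold changes of -4.62 (standard error 0.58, adjusted p = 3.1e-05) in MT2 and -3.49 (standard error 0.66, adjusted p = 0.00072) in WT lungs. All 10 dynein genes fell in both genotypes, and their smallest change was that of Dnah2, an inner arm heavy chain, at -2.92 in MT2 and -2.35 in WT lungs.

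The spoke and central genes followed the motors. Rsph1, a radial spoke head protein, was at 5.11, 8.60, 9.66, 46.6 and 78.5 in MT2 lungs with HBSS tumour, against 323, 364, 434, 424 and 419 in MT2 tumour-free lungs. In WT lungs Rsph1 was at 266, 52.5, 23.0, 81.7 and 7.06 with HBSS tumour, against 440.1, 502, 492, 385 and 438 in tumour-free lungs. The groups stood apart in both genotypes, and the highest tumour values came from MT2 replicate 5 and WT replicate 1. The log2 fold change of Rsph1 was -4.38 (standard error 0.63, adjusted p = 8.1e-05) in MT2 and -3.26 (standard error 0.74, adjusted p = 0.0023) in WT lungs. Hydin, a very large protein of the central apparatus, was at 6.13, 6.45, 2.90, 14.3 and 7.51 in MT2 lungs with HBSS tumour, against 355, 282, 346, 308 and 222 in MT2 tumour-free lungs. The WT groups had Hydin at 141, 8.75, 7.28, 30.4 and 6.05 with HBSS tumour, against 299.5, 428, 420.4, 252 and 285 in tumour-free lungs. In 9 of the 10 tumour lungs Hydin was at 30.4 or less, and it exceeded 222 in all 10 tumour-free lungs. Its log2 fold change was -5.28 (standard error 0.33, adjusted p = 2.8e-07) in MT2 and -4.11 (standard error 0.73, adjusted p = 0.00048) in WT lungs, second only to those of Dnah5 in size. All 3 spoke genes and all 6 central genes fell in both genotypes. Spag6, the relative of the central apparatus gene Spag6l, went the other way in its values, with 89.9 to 186 in MT2 and 11.7 to 121 in WT HBSS tumour lungs, against 0 to 5.69 in MT2 and 2.04 to 6.74 in WT tumour-free lungs.

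Of the ruler and regulatory complex, Ccdc39, which sets the repeat along the axoneme at which dyneins and spokes attach, was at 27.7, 17.1, 12.4, 60.5 and 34.6 in MT2 lungs with HBSS tumour, against 280.4, 236, 305, 277 and 243 in tumour-free ones. In WT lungs Ccdc39 was at 152, 47.8, 53.4, 39.5 and 26.9 with HBSS tumour, against 244, 288, 304, 243 and 238 in tumour-free lungs. Ccdc39 had the smallest log2 change among the 5 genes of the ruler and the regulatory complex in both genotypes, and its groups did not overlap. The log2 fold change of Ccdc39 was -3.29 (standard error 0.36, adjusted p = 1.0e-05) in MT2 and -2.29 (standard error 0.37, adjusted p = 0.00026) in WT lungs. Drc1, a nexin link protein, was at 2.04, 3.23, 6.76, 20.0 and 21.7 in MT2 lungs with HBSS tumour, against 270.2, 236, 246, 250.2 and 228 in tumour-free ones. The WT values of Drc1 were 118, 10.9, 12.1, 43.0 and 3.03 with HBSS tumour, against 224, 283, 291, 232 and 233 in tumour-free lungs. Drc1 was nearly flat among the tumour-free lungs and was at 21.7 or less in all MT2 tumour lungs. Its log2 fold change was -4.84 (standard error 0.52, adjusted p = 1.1e-05) in MT2 and -3.65 (standard error 0.74, adjusted p = 0.0012) in WT lungs.

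Tekt1, a tektin filament protein of the doublets, was at 1.02, 3.23, 15.5, 25.7 and 54.2 in MT2 lungs with HBSS tumour, against 160.2, 135, 188, 173 and 142 in tumour-free ones. In WT lungs Tekt1 was at 92.4, 25.1, 10.9, 37.7 and 4.03 with HBSS tumour, against 180.1, 204, 216, 159.9 and 159.8 in tumour-free lungs. Tumour and tumour-free values stayed apart, and the log2 fold change of Tekt1 was -3.78 (standard error 0.76, adjusted p = 0.00093) in MT2 and -3.03 (standard error 0.64, adjusted p = 0.0015) in WT lungs. Cfap126, a gene of the basal body and axoneme, was at 11.2, 22.6, 33.8, 51.4 and 95.2 in MT2 lungs with HBSS tumour, against 183, 201, 219, 220.2 and 186 in tumour-free ones. For WT lungs Cfap126 was at 129, 21.9, 38.8, 51.4 and 28.2 with HBSS tumour, against 253, 296, 253, 251 and 209 in tumour-free lungs. It fell to a smaller extent than most dynein genes, with log2 fold changes of -2.54 (standard error 0.45, adjusted p = 0.00039) in MT2 and -2.49 (standard error 0.39, adjusted p = 0.00022) in WT lungs. The transcript of Cfap126 is short (1.03 kb) and those of the dynein heavy chains are long. Long transcripts were lower over all genes too, as given below, and the part of length in this order was not tested. Tppp3 was at 283, 369.8, 548, 1145 and 1821 in MT2 lungs with HBSS tumour, against 5281, 6055, 6943, 6218 and 5718 in MT2 tumour-free lungs. The WT lungs had Tppp3 at 2795, 1207, 869.5, 1286 and 1028 with HBSS tumour, against 6478, 6636, 6035, 6406 and 6248 in tumour-free lungs. Tppp3, which also had the highest level per kb in tumour-free lungs, was at 283 or more in every HBSS tumour lung. Its log2 fold change was -3.20 (standard error 0.43, adjusted p = 5.6e-05) in MT2 and -2.28 (standard error 0.26, adjusted p = 2.8e-05) in WT lungs. Among the 8 doublet and axoneme genes the smallest change was that of Tekt2, with 39.4 ± 17.6 and 115 ± 26.5 in MT2 HBSS tumour and MT2 tumour-free lungs and 62.6 ± 17.2 and 155 ± 28.5 in the WT groups (mean ± SD, n = 5 each), or -1.61 (standard error 0.31, adjusted p = 0.00064) in MT2 and -1.32 (standard error 0.21, adjusted p = 0.00024) in WT lungs.

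At the ciliary tip, Sntn was at 2.04, 3.23, 3.87, 13.3 and 50.1 in MT2 lungs with HBSS tumour, against 133, 108, 146, 125 and 122 in tumour-free ones. In WT lungs Sntn was at 61.9, 24.1, 3.64, 18.9 and 2.02 with HBSS tumour, against 112, 191, 185, 115 and 127 in tumour-free lungs. It was at 24.1 or less in 8 of the 10 tumour lungs, with MT2 replicate 5 and WT replicate 1 above. The log2 fold change of Sntn was -3.89 (standard error 0.66, adjusted p = 0.00028) in MT2 and -3.41 (standard error 0.73, adjusted p = 0.0016) in WT lungs. Tmem212, a membrane protein gene of ciliated cells, was at 7.15, 10.8, 31.9, 32.4 and 159 in MT2 lungs with HBSS tumour, against 212, 233, 314, 263 and 243 in tumour-free ones. The WT values of Tmem212 were 136, 40.5, 20.6, 31.4 and 9.08 with HBSS tumour, against 305, 323, 299, 318 and 259 in tumour-free lungs. The same pair of tumour libraries was highest, and no groups overlapped. Tmem212 fell in both, with log2 fold changes of -3.18 (standard error 0.65, adjusted p = 0.0011) in MT2 and -3.18 (standard error 0.55, adjusted p = 0.00040) in WT lungs. Zmynd10, the dynein assembly factor, was at 2.04, 7.53, 6.76, 17.1 and 33.4 in MT2 lungs with HBSS tumour, against 146, 154, 169.6, 151 and 158 in tumour-free ones. In the WT groups Zmynd10 was at 104, 29.5, 3.64, 24.1 and 8.07 with HBSS tumour, against 152, 199, 186, 158 and 159 in tumour-free lungs. Its groups stood apart in both genotypes, with log2 fold changes of -3.90 (standard error 0.53, adjusted p = 5.3e-05) in MT2 and -3.08 (standard error 0.68, adjusted p = 0.0020) in WT lungs.

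The 4 regulators changed less than most structural genes, and Rfx3 did not pass the test. Mcidas was at 2.04, 2.15, 0, 3.81 and 3.34 in MT2 lungs with HBSS tumour, against 6.64, 15.2, 4.53, 2.73 and 11.2 in MT2 tumour-free lungs. In WT lungs Mcidas was at 17.0, 8.75, 8.49, 7.33 and 0 with HBSS tumour, against 2.89, 3.88, 9.58, 3.90 and 10.2 in tumour-free lungs. It overlapped between the groups in both genotypes and was too low to test. Ccno was at 5.11, 11.8, 19.3, 10.5 and 9.18 in MT2 lungs with HBSS tumour, against 77.8, 46.6, 52.6, 51.0 and 47.8 in MT2 tumour-free lungs. The WT values of Ccno were 47.5, 13.1, 18.2, 27.2 and 5.04 with HBSS tumour, against 48.1, 40.7, 31.6, 40.0 and 51.9 in tumour-free lungs. Ccno fell without overlap in MT2 lungs (-2.29, standard error 0.32, adjusted p = 7.5e-05), while in WT lungs the groups overlapped through HBSS replicate 1 (-1.20, standard error 0.47, adjusted p = 0.040). The WT call of Ccno was lost in 10 alternatives, with adjusted p up to 0.083, which were equal totals, quantile scaling, the replicate block and the fits without any 1 of WT HBSS replicates 2, 3 or 5 or WT tumour-free replicates 1, 2, 4 or 5. Rfx2 was at 34.7, 98.9, 123, 168 and 47.6 in MT2 lungs with HBSS tumour, against 226, 242, 291, 254 and 225 in MT2 tumour-free lungs. In WT lungs Rfx2 was at 153, 44.8, 40.0, 74.4 and 67.6 with HBSS tumour, against 279, 257, 253, 244 and 277 in tumour-free lungs. Rfx2 fell in both genotypes without overlap, with log2 fold changes of -1.60 (standard error 0.38, adjusted p = 0.0027) in MT2 and -1.94 (standard error 0.31, adjusted p = 0.00022) in WT lungs. Rfx3 was at 198, 322, 299, 269 and 138 in MT2 lungs with HBSS tumour, against 196, 158, 174, 162 and 160.4 in MT2 tumour-free lungs. The WT lungs had Rfx3 at 134, 173, 177, 145 and 204 with HBSS tumour, against 167, 187, 246, 176 and 170 in tumour-free lungs. Rfx3 was the gene of the 38 that was not called, with 0.46 (standard error 0.22, adjusted p = 0.085) in MT2 and -0.18 (standard error 0.16, adjusted p = 0.32) in WT lungs. The values of Rfx3 depend on the scaling: after a correction for transcript length, chosen after seeing the data, its log2 fold change was 1.28 in MT2 (adjusted p = 5.1e-06) and 0.49 in WT lungs (adjusted p = 0.040), the opposite sign for WT, and quantile scaling gave 0.65 in MT2 (adjusted p = 0.022) and -0.07 in WT lungs.

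Single tumour lungs spanned a wide range. With each gene taken as a percentage of its tumour-free mean in the same genotype, the median over the 39 genes was 1.77, 4.25, 4.34, 13.2 and 15.3% in MT2 HBSS replicates 1 to 5 and 49.1, 8.82, 6.86, 15.1 and 2.2% in WT HBSS replicates 1 to 5. The WT lungs spanned a wider range than the MT2 lungs. In MT2 HBSS replicate 1, 34 of the 39 genes were under 10% of the tumour-free mean, and in WT HBSS replicate 1 none was. Genes of some other cell types of the lung moved with the cilia genes, and those of others did not. The 16 secretory and club cell genes summed to 4105 to 133000 in MT2 and 6539 to 181200 in WT HBSS tumour lungs, against 321300 to 364800 in MT2 and 346900 to 399400 in WT tumour-free lungs. The 8 endothelial genes summed to 2874 to 12550 in MT2 and 4799 to 24510 in WT HBSS tumour lungs, against 68710 to 78280 in MT2 and 69200 to 80950 in WT tumour-free lungs. The 10 alveolar type 2 genes summed to 9373 to 148600 in MT2 and 28150 to 146200 in WT HBSS tumour lungs. In tumour-free lungs they summed to 324200 to 371100 in MT2 and 325800 to 384900 in WT. Sums of alveolar type 1, general epithelial and cardiac muscle genes were also lower without overlap in both genotypes. Sums of 5 general immune genes overlapped, at 2137 to 2998 in MT2 and 2896 to 3760 in WT HBSS tumour lungs. In tumour-free lungs these sums were 2622 to 3775 in MT2 and 3046 to 3901 in WT. Those of 6 basal airway, 7 squamous and 5 mesothelial genes also overlapped in both genotypes. The 8 proliferation genes summed to 4371 to 10210 in MT2 and 4871 to 9911 in WT HBSS tumour lungs, against 584 to 1117 in MT2 and 431 to 808 in WT tumour-free lungs. Ddx3y, a gene of the Y chromosome, was at 123 to 525 in MT2 and 209 to 672 in WT HBSS tumour lungs, against 0.910 to 2.72 in MT2 and 0.958 to 5.78 in WT tumour-free lungs. It was also at 234 or more in every rTIMP2 tumour lung, and so did not overlap between the lungs with tumour cells and those without. The part of these other cell types, of the sex of the mice, of the piece of lung sampled and of the tumour load in the fall of the cilia genes was not tested. Without the squamous-keratin libraries WT HBSS 1 and 4 the WT median was -4.25.

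**Figure D2:**
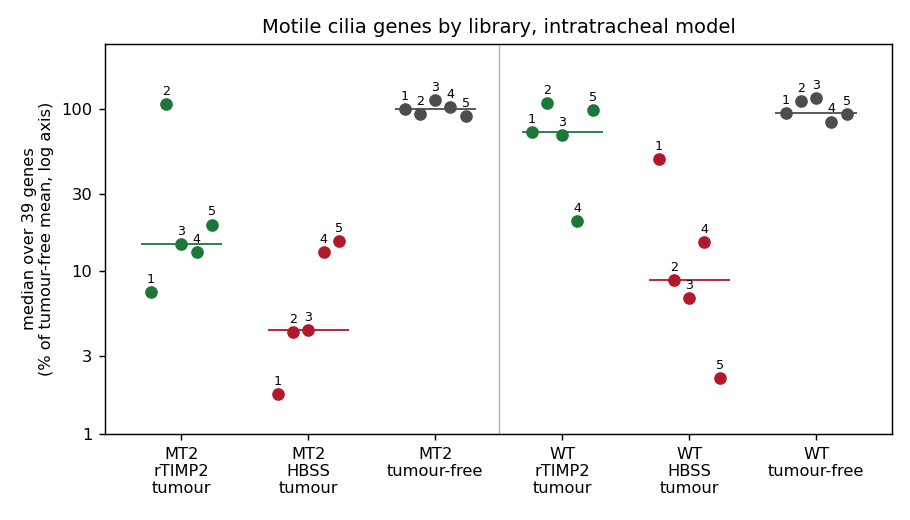
Median over the 39 motile cilia genes in each intratracheal library, as a percentage of the tumour-free mean of the same genotype (log axis), with the replicate number above each point and a line at the group median. HBSS tumour lungs lie between 1.77 and 49.1%, tumour-free lungs between 83.4 and 117%, and rTIMP2-treated lungs spread from 7.49 to 108%.

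rTIMP2-treated tumour lungs were next compared with HBSS tumour lungs of the same genotype, which asks whether the ciliary transcripts differ under treatment. In WT lungs 32 of 38 tested genes were higher with rTIMP2 (adjusted p under 0.05) and none was lower, with a median log2 fold change of 2.72, while 16% of all tested genes were higher and 11.3% lower. In MT2 lungs none of 37 tested genes was called, with a median of 1.74. There 0% of all tested genes were higher and 0% lower, although 1559 of 16248 genes, 17 of the 39 among them, had an unadjusted p under 0.05. For all 39 genes the rTIMP2 and HBSS values overlapped in both genotypes. The WT calls sat close to the threshold, with adjusted p from 0.040 to 0.048. The WT count was 0 without any 1 of WT HBSS replicates 2, 3, 4 or 5 or WT rTIMP2 replicates 1, 2, 3 or 5, and 36 without WT HBSS replicate 1 or without WT rTIMP2 replicate 4. It was also 0 of 37 without the squamous-keratin libraries, a setting chosen after seeing the data, where the median log2 fold change was 3.32. With 1 library left out the WT median lay between 2.204 and 3.279, so it stayed positive whatever the count. The share of all genes called in these fits is not given here. In MT2 lungs the median was 1.02 without rTIMP2 replicate 2.

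The treated lungs were not alike. The median over the 39 genes was 7.49, 107, 14.7, 13.2 and 19.4% of the tumour-free mean in MT2 rTIMP2 replicates 1 to 5 and 72.3, 108, 69.2, 20.3 and 98.2% in WT rTIMP2 replicates 1 to 5. The 4 treated lungs without or nearly without the luciferase reporter (MT2 replicate 2 and WT replicates 2, 3 and 5) were at 69.2 to 108%, with Xist at 42.2 to 119. Ddx3y, of the Y chromosome, was at 1024 to 1321 in these lungs and at 234 or more in every treated lung. WT replicates 1 and 4, with the reporter at 23.3 and 67.7, were at 72.3 and 20.3%. The other 4 MT2 lungs had the reporter at 37.9 to 75.5 and stood at 7.49 to 19.4%. The part of tumour load, of the sex of the mice and of the squamous tissue in these levels was not tested. The club cell gene Scgb1a1 went along, with 21970 to 316600 in MT2 and 58400 to 351700 in WT rTIMP2 lungs, against 3313 to 121300 in MT2 and 5894 to 147000 in WT HBSS tumour lungs.

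Among the motor genes, Dnah5 was at 29.4, 725, 37.7, 59.2 and 71.7 in MT2 rTIMP2 lungs and at 559, 738, 495, 66.1 and 666 in WT rTIMP2 lungs, against the HBSS values given above. It had the highest log2 fold change of the set in both genotypes, at 2.61 (standard error 0.82, adjusted p = 0.44) in MT2 and 3.38 (standard error 0.88, adjusted p = 0.040) in WT lungs. Dnah9 was at 6.87, 313, 35.8, 28.2 and 43.0 in MT2 rTIMP2 lungs and at 256, 399, 235, 45.7 and 323 in WT rTIMP2 lungs. Dnah9 rose in WT lungs (3.02, standard error 0.85, adjusted p = 0.040), although WT rTIMP2 replicate 4 was below the highest HBSS lung. Dnali1 was at 24.5, 379, 36.8, 48.6 and 60.4 in MT2 rTIMP2 lungs and at 254, 394, 295, 74.3 and 431 in WT rTIMP2 lungs. The WT change of Dnali1 was 2.90 (standard error 0.77, adjusted p = 0.040), and MT2 replicate 2 was the only treated MT2 lung within the tumour-free range. All 10 dynein genes rose in WT lungs, with log2 fold changes of 1.90 to 3.38.

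Rsph1 was at 29.4, 411, 63.1, 58.3 and 91.1 in MT2 rTIMP2 lungs and at 263, 502, 334, 83.2 and 419.7 in WT rTIMP2 lungs. In WT lungs it rose (2.55, standard error 0.85, adjusted p = 0.048), although WT HBSS replicate 1 was above 2 of the 5 treated lungs. Hydin was at 5.88, 294, 11.3, 37.9 and 38.9 in MT2 rTIMP2 lungs and at 314, 339.6, 159, 24.5 and 305 in WT rTIMP2 lungs. The WT change of Hydin was 3.14 (standard error 0.96, adjusted p = 0.041). Ccdc39 was at 23.0, 290.4, 61.1, 45.9 and 39.8 in MT2 rTIMP2 lungs and at 238, 290.4, 180.1, 92.2 and 393 in WT rTIMP2 lungs. Ccdc39 had a smaller WT change with a smaller standard error, 2.00 (standard error 0.50, adjusted p = 0.040). Drc1 was at 13.7, 256, 20.7, 14.6 and 46.1 in MT2 rTIMP2 lungs and at 185, 275, 209, 37.5 and 293 in WT rTIMP2 lungs. Drc1 rose in WT lungs (3.03, standard error 0.89, adjusted p = 0.040), and in MT2 lungs every value except that of replicate 2 was at 46.1 or less. Of the 5 ruler and regulatory complex genes 4 rose, and Ccdc113, a part of the ciliary link system, was not called (2.80, standard error 1.03, adjusted p = 0.061).

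Tekt1 was at 8.83, 186, 22.6, 16.5 and 33.8 in MT2 rTIMP2 lungs and at 104, 156, 142, 44.1 and 143 in WT rTIMP2 lungs. Its WT change was 2.28 (standard error 0.72, adjusted p = 0.043). Cfap126 was at 48.1, 241, 37.7, 35.9 and 70.6 in MT2 rTIMP2 lungs and at 174, 276, 184, 69.4 and 212 in WT rTIMP2 lungs. Cfap126 rose in WT lungs (1.91, standard error 0.50, adjusted p = 0.040). Tppp3 was at 988, 4205, 1557, 948 and 1399 in MT2 rTIMP2 lungs and at 3391, 6481, 5332, 2353 and 5936 in WT rTIMP2 lungs. For Tppp3 the WT groups overlapped only through the lowest treated and the highest HBSS library, with 1.74 (standard error 0.36, adjusted p = 0.040). Of the 8 doublet and axoneme genes 6 rose in WT lungs, and Tekt2 (0.68, standard error 0.31, adjusted p = 0.11) and Tekt4 (2.81, standard error 0.96, adjusted p = 0.051), both tektins, were not called.

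Sntn was at 17.7, 129, 37.7, 13.6 and 18.4 in MT2 rTIMP2 lungs and at 83.2, 129.9, 83.7, 49.0 and 154 in WT rTIMP2 lungs. Tmem212 was at 28.4, 293, 78.2, 42.7 and 69.6 in MT2 rTIMP2 lungs and at 168, 349, 257, 80.0 and 259.9 in WT rTIMP2 lungs. Zmynd10 was at 15.7, 157, 30.1, 25.2 and 43.0 in MT2 rTIMP2 lungs and at 119.7, 166, 118, 48.9 and 207 in WT rTIMP2 lungs. These 3 genes rose in WT lungs, with log2 fold changes of 2.80 (standard error 0.77, adjusted p = 0.040) for Sntn, 2.59 (standard error 0.65, adjusted p = 0.040) for Tmem212 and 2.57 (standard error 0.76, adjusted p = 0.040) for Zmynd10. None of the regulators was called in either genotype. Mcidas was at 0, 2.95, 0, 3.88 and 5.12 in MT2 rTIMP2 lungs and at 9.13, 8.18, 2.29, 8.98 and 5.22 in WT rTIMP2 lungs, too low to test. Ccno was at 9.81, 41.3, 16.0, 14.6 and 26.6 in MT2 rTIMP2 lungs and at 41.6, 32.7, 21.8, 42.4 and 35.5 in WT rTIMP2 lungs (0.91, standard error 0.51, adjusted p = 0.18, for WT). Rfx2 was at 35.3, 199.5, 61.2, 124 and 94.2 in MT2 rTIMP2 lungs and at 203, 244, 171, 53.0 and 186 in WT rTIMP2 lungs (1.17, standard error 0.47, adjusted p = 0.078, for WT). The regulators Ccno and Rfx2 thus had positive WT values under the size seen for the dyneins, and their tests missed the threshold. Rfx3 was at 180.5, 245, 165, 134 and 154 in MT2 rTIMP2 lungs and at 229, 193, 158, 142 and 241 in WT rTIMP2 lungs. It had the lowest log2 fold change of the set, at -0.45 (standard error 0.28, adjusted p = 0.58) in MT2 and 0.20 (standard error 0.21, adjusted p = 0.46) in WT lungs.

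**Figure D3:**
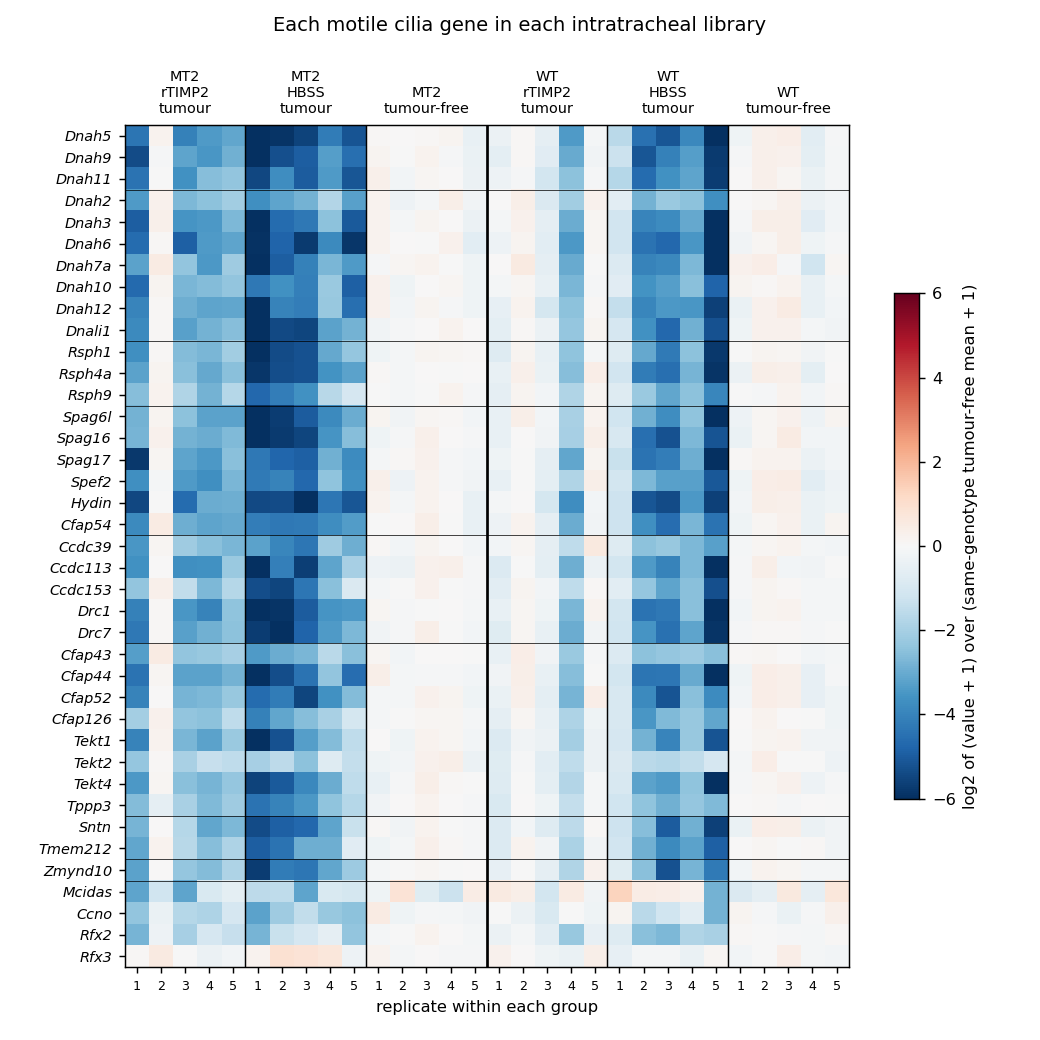
Each of the 39 motile cilia genes (rows, grouped by role) in each of the 30 intratracheal libraries (columns), as log2 of (value + 1) over (mean of the same-genotype tumour-free lungs + 1), with blue for lower and red for higher. The structural genes, from dynein arms to Zmynd10, are blue in all HBSS tumour lungs, palest in WT replicate 1. MT2 rTIMP2 replicate 2 and WT rTIMP2 replicates 2 and 5 are as pale as tumour-free lungs, and Rfx3 stays near white or pale red throughout.

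The treated lungs were also set against tumour-free lungs. In MT2 lungs 37 of 38 genes were lower in rTIMP2-treated tumour lungs than in tumour-free lungs and none was higher, with a median log2 fold change of -2.27, while 32.7% of all tested genes were lower and 26.6% higher. The lowest was Hydin, with 77.6 ± 122 and 302 ± 53.7 in MT2 rTIMP2 and MT2 tumour-free lungs (mean ± SD, n = 5 each) and -3.18 (standard error 0.82, adjusted p = 0.0092). Only Tppp3, Ccno and Rfx2 had no overlap between these groups, and replicate 2 was within or above the tumour-free range for most of the rest. Rfx3 was again the gene not called (0.02, standard error 0.18, adjusted p = 0.93). In WT lungs none of 38 genes was called in treated against tumour-free lungs, with a median of -0.59 and 37 negative values. There 0.137% of all tested genes were lower and 0.0714% higher, and 2868 of 16815 genes, 2 of the 39 among them, had an unadjusted p under 0.05. The lowest WT value was that of Hydin, with 228 ± 134 and 337 ± 81.5 in WT rTIMP2 and WT tumour-free lungs and -0.97 (standard error 0.64, adjusted p = 0.39). Without WT rTIMP2 replicate 4 the WT median was -0.17. These comparisons share their tumour-free and HBSS lungs with those above and are no independent evidence.

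The difference between the genotypes was tested directly. In tumour-free lungs none of 38 genes was called between MT2 and WT, with a median log2 fold change of -0.10, the lowest for Tekt2 (-0.44, standard error 0.15, adjusted p = 0.41) and the highest for Ccno (0.36, standard error 0.18, adjusted p = 0.52). Of all tested genes 0.0119% were higher and 0.0119% lower in MT2, and 1633 of 16774 genes, 6 of the 39 among them, had an unadjusted p under 0.05. In HBSS tumour lungs none of 34 genes was called between MT2 and WT, with a median of -0.94, the lowest value for Dnah5 (-1.48, standard error 0.77, adjusted p = 0.71) and the highest for Rfx3 (0.51, standard error 0.25, adjusted p = 0.69). Dnah7a, Spag16, Spag17, Hydin and Mcidas were below the minimum there. No gene at all was called (0% in either direction), and 1208 of 16299 genes, none of the 39, had an unadjusted p under 0.05. In rTIMP2-treated tumour lungs all 38 log2 fold changes of MT2 over WT were negative, with a median of -1.78, the lowest for Dnah6 (-2.42, standard error 0.98, adjusted p = 0.26) and the highest for Rfx3 (-0.14, standard error 0.24, adjusted p = 0.69). None was called, and neither was any other gene (0% in either direction), with 2998 of 16858 genes, 31 of the 39 among them, at an unadjusted p under 0.05. Without MT2 rTIMP2 replicate 2, the library with the reporter at 0.983, 36 of the 38 genes were lower in MT2 than in WT treated lungs, with a median of -2.37. That fit kept WT rTIMP2 replicates 2, 3 and 5, which had the reporter at 0, so genotype and tumour load cannot be told apart in it. The share of all genes called in that fit is not given here. The interaction of genotype and tumour was called for none of 38 genes, with a median of -0.82, the lowest for Spag6l (-1.46, standard error 0.95, adjusted p = 0.65) and the highest for Rfx3 (0.65, standard error 0.28, adjusted p = 0.43). Over all genes 0% were higher and 0.0223% lower in that interaction, and 1776 of 17927 genes, 1 of the 39 among them, had an unadjusted p under 0.05. The interaction of genotype and rTIMP2 was called for none of 38 either (0% of all genes in either direction), with a median of -0.91, the lowest for Spag17 (-1.89, standard error 1.33, adjusted p = 0.67) and the highest for Ccno (-0.07, standard error 0.69, adjusted p = 0.97). There 1053 of 17841 genes, none of the 39, had an unadjusted p under 0.05. A larger fall in MT2 than in WT lungs, or a different response to rTIMP2, was therefore not shown for any of the 39 genes at this spread between libraries.

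In the subcutaneous model rTIMP2 moved few of the ciliary transcripts. With rTIMP2 from day 0, 1 of 38 tested genes (all but Mcidas) was higher than with HBSS and none was lower, with a median log2 fold change of -0.02, while 3.88% of all tested genes were higher and 4.21% lower. With rTIMP2 from day 7, 2 of 39 genes were lower and none was higher, with a median of 0.08, while 4.46% of all tested genes were higher and 5.92% lower. Both shares of called genes are near those of all genes. Between rTIMP2 from day 7 and from day 0 none of 39 genes was called, with a median of 0.07, and 0.154% of all genes were higher and 0.0801% lower. In that comparison 2249 of 17481 genes, 4 of the 39 among them, had an unadjusted p under 0.05. The day 0 and day 7 comparisons share their 5 HBSS lungs.

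Dnah12, an inner arm heavy chain, was at 521, 554, 614, 686 and 610.3 from day 0, 648, 639, 484 and 554 from day 7 and 492, 396, 546, 466 and 465 with HBSS. It was the gene called higher from day 0 (0.34, standard error 0.095, adjusted p = 0.042), with groups that overlapped, and its day 7 value missed the threshold (0.29, standard error 0.10, adjusted p = 0.082). The spoke gene Rsph9 was at 204, 199, 261, 183 and 144 from day 0, 181, 159.6, 185 and 159 from day 7 and 218, 193, 236, 242 and 216 with HBSS. All 4 day 7 values of Rsph9 were below the 5 HBSS values, and it fell (-0.37, standard error 0.10, adjusted p = 0.032), with the day 0 value not called (-0.18, standard error 0.13, adjusted p = 0.42). Tppp3 was at 6849, 7746, 8149, 6561 and 5625 from day 0, 6948, 6271, 7235 and 5894 from day 7 and 7428, 7296, 7989, 8007 and 8620 with HBSS. Its day 7 values were likewise all below those of HBSS, and Tppp3 fell (-0.26, standard error 0.076, adjusted p = 0.044). These calls depend on single libraries. The day 0 count was 0 without HBSS replicates 2, 4 or 5 or day 0 replicates 3 or 5, and 2 without HBSS replicate 1, when Rfx2 was called higher too (log2 fold change 0.46, adjusted p = 0.033). Without day 0 replicate 4, Rfx2 (0.48, adjusted p = 0.032) was called in place of Dnah12. The day 7 count was 0 without HBSS replicates 3 or 4 or day 7 replicates 1 or 2. It was 4 (2 higher and 2 lower) without HBSS replicate 1, which had the high squamous keratin. Without HBSS replicate 5 it was 2, both higher (Cfap44 and Dnah6), and without day 7 replicate 4 it was 1, Rsph4a, also higher.

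Most other genes kept close to the HBSS level. Dnah5 was at 997, 1146, 1177, 1293 and 1132 from day 0, 1420, 1183, 1206 and 1170 from day 7 and 1168, 971, 1389, 1157 and 1240 with HBSS. Dnah9 was at 518, 562, 562, 555 and 532 from day 0, 672, 532, 519 and 517 from day 7 and 512, 429.6, 647, 613 and 580.5 with HBSS. Both outer arm genes overlapped fully between the groups, with replicate 1 of day 7 the highest library. The log2 fold changes of Dnah5 were -0.04 (standard error 0.093, adjusted p = 0.82) from day 0 and 0.08 (standard error 0.093, adjusted p = 0.64) from day 7. Dnali1 was at 534, 578, 602, 568 and 570.5 from day 0, 749, 591, 659 and 568 from day 7 and 676, 482, 663, 579.6 and 634 with HBSS. Rsph1 was at 581, 598, 643, 578 and 455 from day 0, 642, 538, 604 and 518 from day 7 and 772, 557, 689.8, 638 and 622 with HBSS. Rsph1 had negative values that missed the threshold, -0.20 (standard error 0.10, adjusted p = 0.23) from day 0 and -0.19 (standard error 0.094, adjusted p = 0.22) from day 7. Hydin was at 439, 587, 526, 547 and 493 from day 0, 652, 508, 503 and 509 from day 7 and 466, 378, 555, 537 and 589.7 with HBSS. Ccdc39 was at 538, 536, 582, 678 and 656 from day 0, 769, 707, 671 and 699 from day 7 and 655, 440.1, 697, 568 and 599.6 with HBSS. For Ccdc39, 3 of the 4 day 7 values exceeded every HBSS value, and the test missed the threshold (0.28, standard error 0.11, adjusted p = 0.12). Drc1 was at 393, 403, 426, 427 and 412 from day 0, 621, 510.2, 498 and 421 from day 7 and 460.1, 428, 524, 475 and 516 with HBSS. The day 0 values of Drc1 were all below those of HBSS, yet the change was not called (-0.22, standard error 0.075, adjusted p = 0.086).

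Tekt1 was at 199, 173, 255, 204 and 154 from day 0, 214, 212, 236 and 213 from day 7 and 258, 202, 258, 238 and 239.8 with HBSS. It had the lowest day 0 log2 fold change of the set and was not called (-0.29, standard error 0.13, adjusted p = 0.16). Cfap126 was at 243, 199.9, 256, 200.4 and 191 from day 0, 231, 212, 217 and 177 from day 7 and 272, 214, 235, 219 and 212 with HBSS. Sntn was at 163, 181, 214, 197 and 205 from day 0, 232, 189.8, 174 and 198 from day 7 and 255, 168, 211, 179.7 and 200 with HBSS. Both genes overlapped between all 3 groups. Tmem212 was at 378, 283, 401, 274 and 253 from day 0, 323, 259, 281 and 271 from day 7 and 476, 298, 309, 352 and 403 with HBSS. Zmynd10 was at 239.5, 233, 328, 250.5 and 188 from day 0, 286, 232, 275 and 248 from day 7 and 282, 244, 307, 247 and 285 with HBSS. Tmem212 had a day 7 log2 fold change of -0.36 (standard error 0.13, adjusted p = 0.092), and neither gene was called.

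Of the regulators, Mcidas was at 8.76, 13.5, 8.16, 16.7 and 5.97 from day 0, 20.9, 14.5, 9.15 and 19.7 from day 7 and 11.2, 2.13, 7.20, 9.09 and 7.14 with HBSS. Mcidas had the highest day 7 log2 fold change of the set (1.10, standard error 0.42, adjusted p = 0.11) on low values, and was not called. Ccno was at 64.3, 62.1, 40.8, 59.4 and 58.7 from day 0, 61.6, 60.3, 39.7 and 45.4 from day 7 and 44.0, 45.9, 45.2, 82.8 and 51.0 with HBSS. Rfx2 was at 512, 414, 354, 309 and 382 from day 0, 389, 372, 337 and 330 from day 7 and 346, 268, 289, 269.6 and 306 with HBSS. Rfx2 had the highest day 0 log2 fold change of the set (0.40, standard error 0.12, adjusted p = 0.057), with 1 treated lung inside the HBSS range, and missed the threshold. Rfx3 was at 280.4, 290, 310.3, 324 and 354 from day 0, 334, 310.4, 323 and 352 from day 7 and 331, 287, 340.3, 305 and 297 with HBSS, and was called in neither comparison. Foxj1, the forkhead factor that acts with them and is not among the 39, was at 2098, 2361, 2850, 2360 and 2108 from day 0, 2741, 2520, 2521 and 2267 from day 7 and 3378, 3212, 3668, 3597 and 4133 with HBSS. Foxj1 was lower in every treated lung than in every HBSS lung, with a log2 fold change of -0.61 (standard error 0.093, adjusted p = 0.0012) from day 0 and -0.52 (standard error 0.078, adjusted p = 0.0024) from day 7. The 10 alveolar type 2 genes also summed lower, to 267800 to 358300 from day 0 and 289900 to 328900 from day 7, against 360800 to 436300 with HBSS. General epithelial sums were below HBSS from day 0 only, and secretory and alveolar type 1 sums overlapped with HBSS in both comparisons. The part of cell types in the Foxj1 values was not tested. Of the 8 markers of multiciliated cells (Foxj1, Ccdc78, Deup1, Dnaic1, Dnaic2, Dynlrb2, Fam183b and Pifo) Foxj1 was the only one called in either comparison.

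**Figure D4:**
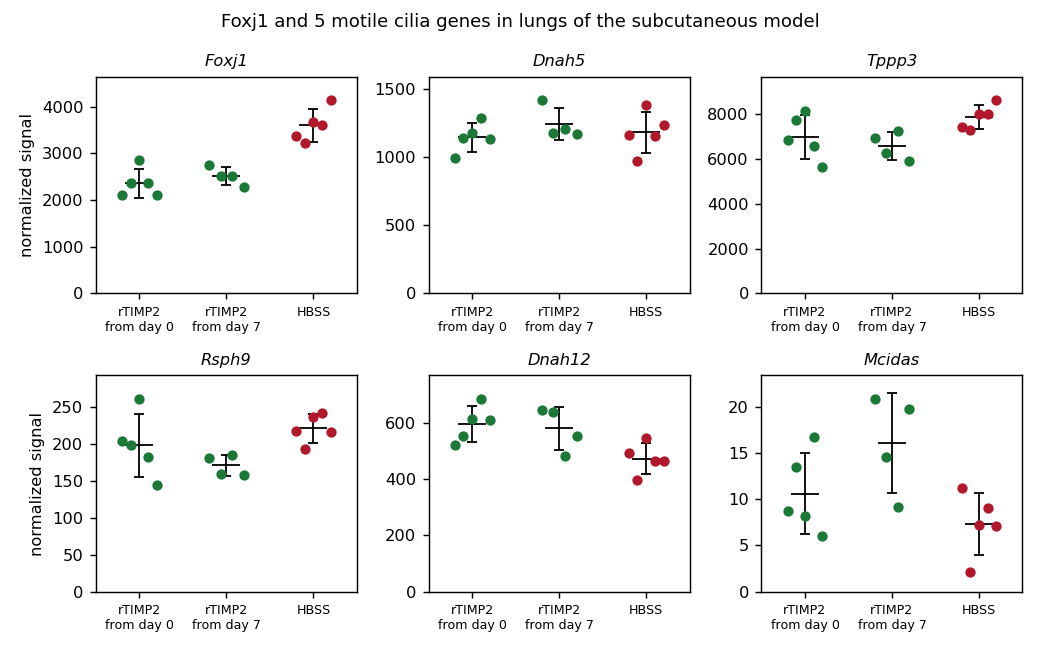
Normalized signal of Foxj1 and of Dnah5, Tppp3, Rsph9, Dnah12 and Mcidas in each lung of the subcutaneous model, with points for libraries and bars for the mean and SD. Foxj1 lies at 2098 to 2850 with rTIMP2 from day 0 and 2267 to 2741 from day 7, below the HBSS range of 3212 to 4133, while the cilia genes differ little or overlap.

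Transcript length moved with these small differences. From day 7, none of the 13 genes with transcripts under 2 kb had a positive log2 fold change and all 10 of those of 10 kb and over had one, with medians of -0.11 and 0.15. The same held over all genes, with medians of -0.11 for those under 2 kb and 0.12 for those of 10 kb and over, and with 11% of the short and 2.13% of the long genes called lower. From day 0 the medians were -0.13 for the short and 0.05 for the long cilia genes, and -0.05 and 0.05 over all genes. Over the cilia genes Spearman's rho of log2 fold change and length was 0.67 (n = 39) from day 7 and 0.53 (n = 38) from day 0, a description across genes of the same libraries. After the length correction none of the cilia genes was called from day 0 or from day 7. In the intratracheal model the gap was larger in single lungs. MT2 HBSS replicate 5 kept a median of 34.0% of the tumour-free level for cilia genes under 2 kb and 2.88% for those of 10 kb and over, and over all genes the medians of log2 change there were 0.74 for short and -2.15 for long transcripts. The part of RNA quality in this was not tested. In HBSS tumour lungs all 13 short and all 10 long cilia genes had negative log2 fold changes in both genotypes. Their medians were -3.69 (short) and -4.55 (long) in MT2 and -3.03 and -3.70 in WT lungs. Over all tested genes these medians were 0.46 and -0.79 in MT2 and 0.36 and -0.61 in WT lungs. The order of the cilia genes by size of fall is therefore confounded with transcript length.

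**Figure D5:**
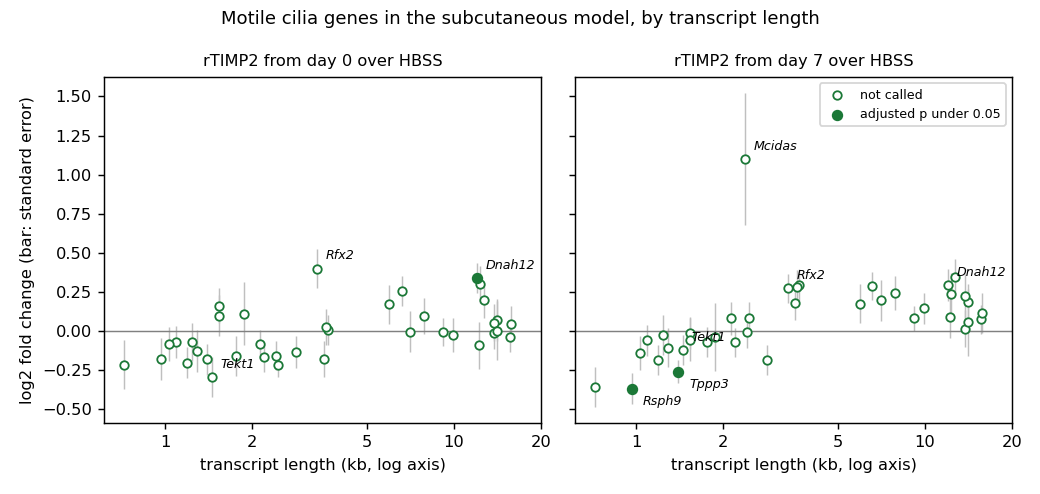
Log2 fold change of each motile cilia gene over HBSS against its transcript length (log axis), for rTIMP2 from day 0 (left) and day 7 (right), with standard errors as bars and filled points for adjusted p under 0.05. Genes under 2 kb lie at or below 0 in the day 7 panel and those of 10 kb and over above it.

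Other genes of motile cilia gave the wider setting. From a list of 135 such genes outside the 39, 111 were found. In HBSS tumour lungs 78 of 107 tested were lower and 11 higher in MT2, with a median log2 fold change of -3.16, and 80 of 107 were lower and 11 higher in WT, with a median of -2.47. Over all tested genes 35.9% were lower and 31.5% higher in MT2 lungs and 37.7% lower and 32.8% higher in WT lungs. With rTIMP2, 53 of 105 were higher and 2 lower than with HBSS in WT lungs, and none of 89 was called in MT2 lungs. For all tested genes these shares were 16% higher and 11.3% lower in WT lungs and 0% in either direction in MT2 lungs. All 8 markers of multiciliated cells were lower in HBSS tumour lungs of both genotypes, and 6 of the 8 were higher with rTIMP2 in WT lungs. Of the 11 genes called higher, 6 of the MT2 and 7 of the WT genes were on the list of regulators and basal body genes, and the others were on the lists of axonemal and assembly genes, among them Gas8 and Nme7 in both genotypes. Plk4, the kinase that starts centriole duplication, averaged 464 in MT2 lungs with HBSS tumour, against 91.9 in MT2 tumour-free lungs (log2 fold change 2.33, standard error 0.15, adjusted p = 3.5e-07). In WT lungs Plk4 averaged 544 with HBSS tumour, against 86.2 without (2.63, standard error 0.15, adjusted p = 5.2e-07). Stil, which acts with Plk4, rose by 1.95 in MT2 (standard error 0.39, adjusted p = 0.00083) and by 2.73 in WT lungs (standard error 0.22, adjusted p = 3.2e-06). E2f4, a cell cycle factor that also acts in multiciliated cells, rose by 1.08 in MT2 (standard error 0.11, adjusted p = 7.2e-06) and by 1.05 in WT lungs (standard error 0.10, adjusted p = 1.1e-05). The 33 genes of intraflagellar transport and the Bardet-Biedl complex, which primary cilia share, had medians of 0.09 in MT2 and -0.07 in WT HBSS tumour lungs over tumour-free lungs, with 9 of 33 lower and 9 higher in MT2 and 12 of 32 lower and 2 higher in WT. The share of this list called lower in WT lungs was close to the 37.7% of all tested genes. In the subcutaneous model Foxj1 was the only gene of the wider motile list called from day 0, and Foxj1 (lower) and Cep290 (higher, 0.35, standard error 0.10, adjusted p = 0.042), a transition zone gene, were called from day 7.

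Most of the 39 genes also moved together from lung to lung in the subcutaneous model. Over the 14 subcutaneous libraries, with group means taken out, 35 of the 38 genes that reached 10 in every library had a Pearson r of 0.5 or more with the mean of the 38, a mean that includes the gene itself. Cfap43 (r = 0.91), Dnali1 (0.89) and Ccdc153 (0.88) were nearest to it. The regulators Rfx3 (0.29), Rfx2 (0.07) and Ccno (-0.04) were farthest. Genes outside the set whose pattern was most like it included 9530053A07Rik (r = 0.95), Mycbpap, Casc1, Vwa3a, F630042J09Rik, Lrguk, Mat1a, Ttc12 and Itprid1 (r = 0.90). These values are over libraries that differ in depth, and carry no test. The share of all genes with such an r is not given here. HBSS replicate 2 was low in the mean log2 level of the 39 genes (8.233, against 8.531 to 8.634 in the other HBSS lungs). Its part in these correlations was not tested.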

How the data were processed

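The authors deposited 1 table of normalized counts for each model, with 1 column per library, and the values are normalized signal, not whole reads. DESeq2, Partek, Bowtie2, STAR and the mouse build mm10 are named, per the submitters' processing notes, without their roles or versions. The sources used here do not give the annotation, the strand setting or the handling of reads that match several genes.

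All tests were made here on log2(signal + 1), with limma (3.58.1, in R 4.3.3) and its trended, robust empirical Bayes step. Genes needed a signal of 10 or more in as many libraries as the smaller group holds. A fit held only the groups compared, p-values were adjusted over all genes tested (Benjamini-Hochberg), and an adjusted p under 0.05 was called. There were 14 comparisons, in groups taken from the sample titles. The normalized counts are not fitted with a count model. Depth was estimated from the steps between low values, of which 80.8 to 86.6% were whole within 0.02 of a step, at 10700000 to 17100000 reads per library in the intratracheal table and 14800000 to 19400000 in the subcutaneous one. Fits were tested on simulated data first. Lengths are those of the longest transcript, protein-coding where there is one, in GENCODE M21.

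The 39 genes and all lists were chosen with earlier results of these data known, and comparisons within a model share control lungs. The genes followed in every sample were fixed by name (17 of the 39). For each comparison the rule added the highest and the lowest fold change, members called against the majority and up to 4 called members where few were. Equal replicate numbers in different groups are not stated to mark shared animals, litters or days, and correlations of their deviations did not bear out pairs. Alternatives were another pseudocount (10), no filter or a filter at 50, equal totals, quantile scaling, all groups in 1 fit, a replicate block, plain empirical Bayes and each library left out.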

Additional observations from a re-analysis of the deposited data

Results flagged for a closer look

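Single libraries stood far from the rest of their group in 36 of 162 sets of values, by the gap to the nearest value over the range. For single genes the gap was taken on the signal, not on its log2, and tumour lungs are skewed on that scale. The number of about 8.1 by chance holds only for values with a normal spread. The count of 36 therefore cannot be read against it. The sets are the 17 genes followed by sample and the mean log2 level of all 39 in each of the 9 groups, and genes of 1 library are not independent.

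MT2 rTIMP2 replicate 2 was far above the other 4 lungs of its group for Dnah5 (725.4), Dnah9 (313.3), Dnali1 (379.4), Rsph1 (410.9), Hydin (293.9), Ccdc39 (290.4), Drc1 (255.6), Tekt1 (185.8), Cfap126 (240.8), Tppp3 (4205), Sntn (128.8), Tmem212 (292.9) and Zmynd10 (157.2). The luciferase reporter was at 0.983 and Xist at 119 in this lung, against a reporter of 37.9 to 75.5 and Xist of 1778 to 4843 in the other 4.

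WT HBSS replicate 1 was far above its group for Dnah5 (233.2), Dnah9 (155.9), Dnali1 (186.5), Rsph1 (266.4), Hydin (140.8), Ccdc39 (152.3), Cfap126 (129.1), Tppp3 (2795), Tmem212 (136.3) and Zmynd10 (104). It also had Krt13 at 22600. MT2 HBSS replicate 5 was far above its group for Sntn (50.08) and Tmem212 (158.6), both short transcripts. WT rTIMP2 replicate 4 was far below its group in the mean log2 level of the 39 genes (5.689).

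Among tumour-free lungs, Dnah5 was low in MT2 replicate 5 (472.7), Ccno was high in MT2 replicate 1 (77.75) and Rfx3 was high in WT replicate 3 (246.1). In the subcutaneous model day 0 replicate 3 was low for Ccno (40.83). Day 7 replicate 1 was high for Dnah5 (1420), Dnah9 (672.3) and Hydin (652.5), and day 7 replicate 3 was high for Tekt1 (235.9). With HBSS, replicate 4 was high for Ccno (82.8) and replicate 2 was low in the mean log2 level of the 39 genes (8.233).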

How the results depend on the processing

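The number of the 39 genes called stayed within 1.5 times in HBSS tumour lungs against tumour-free lungs, with 36 to 38 in MT2 and 35 to 38 in WT lungs, and in rTIMP2-treated MT2 lungs against tumour-free lungs, with 36 to 37. It was 0 under every setting for rTIMP2 against HBSS in MT2 lungs, for treated WT against tumour-free lungs, for MT2 against WT lungs in the tumour-free and HBSS groups, for both interactions and for day 7 against day 0. In rTIMP2-treated WT lungs against HBSS the count of 32 was 0 to 36 with a library left out, 0 with the replicate block and 0 without the squamous-keratin libraries. The median log2 fold change in these fits was 2.204 to 3.279, 2.72 and 3.32, in that order. For MT2 against WT rTIMP2-treated lungs the count of 0 was 0 to 36 with a library left out. For rTIMP2 from day 0 against HBSS the count of 1 was 2 with equal totals and with all groups in 1 fit, 0 with plain empirical Bayes and with the length correction, and 0 to 2 with a library left out. With the replicate block the count was also 1, but the gene called was Rfx2 (0.40, adjusted p = 0.036) and Dnah12 was not called. For rTIMP2 from day 7 the count of 2 lower genes was 0 with equal totals, all groups in 1 fit or the length correction, 1 with plain empirical Bayes and 0 to 4 with a library left out. With the replicate block, which drops HBSS replicate 5 for want of a partner, 2 genes were called from day 7, both higher (Cfap44 and Dnah6), the opposite direction. Cfap44 was also called higher with quantile scaling (0.30, adjusted p = 0.0495), where Rsph9 stayed lower and Tppp3 was not called, and with the filter at 50 (0.29, adjusted p = 0.048), where 3 genes were called. The fit without HBSS replicate 5 gave the same 2, and that without day 7 replicate 4 gave 1 higher. The cause was not tested. In none of 12 comparisons with shared numbers did every pair correlate above 0.1, and the pairs' correlations ran from -0.52 to 0.69. Pairing was thus not shown, and a check of this kind cannot exclude it.

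Quantile scaling moved the median over all genes from -0.05 to 0.15 in MT2 HBSS tumour lungs against tumour-free lungs. Low signal limits Mcidas, with group means of 2.27 to 16.1 around or below the minimum of 10, and Dnah7a, Hydin, Spag16 and Spag17 in HBSS tumour lungs, where a few reads set the value. Wide spread between tumour lungs limits the comparisons of treatment and genotype.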

Other observations

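A few genes of motile cilia outside the 39 were higher in HBSS tumour lungs than in tumour-free lungs. Of the 111 motile cilia genes outside the 39 that were found, the 9 called higher in both genotypes were Cep152, Cep78, E2f4, E2f5, Gas8, Mcrs1, Nme7, Plk4 and Stil. They include centriole and cell cycle genes (Plk4, Stil, Cep152, E2f4) as well as axonemal ones (Gas8, Nme7). Sass6 and Dnaaf2 were called higher in WT lungs, and Dnal4 and Rsph3b in MT2 lungs. In each genotype 11 of 107 tested genes were higher, while 31.5% of all tested genes were higher in MT2 and 32.8% in WT lungs. The 8 proliferation genes moved the same way (sums of 4371 to 10210 in MT2 and 4871 to 9911 in WT HBSS tumour lungs, against 584 to 1117 in MT2 and 431 to 808 in WT tumour-free lungs). Whether the higher values come from tumour cells was not tested.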
